A study of Mus musculus with 6 samples.

Results

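A set of 63 genes of 24083 in the table was near silent in mouse embryonic stem cells with wild-type Nanog (WT) and measurable in cells with the R153A form of Nanog (R153A). The members were chosen by their own values, in FPKM, the fragments mapped to a gene per kilobase of its model, scaled to library size. Each had 1.5 FPKM or more in all 3 R153A libraries and under 0.5 FPKM in all 3 WT libraries. Of the 11290 genes under 0.5 FPKM in every WT library, 86 (0.762%) met both thresholds, and 23 of those were left out by their symbols, among them Wnt, Fgf, Zfp and Mir genes, T, Sp5 and Cdx2. The difference between R153A and WT in these 63 genes is therefore a description, and calls on them in a fit carry no support.

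Polyadenylated RNA was sequenced from embryonic stem cells in 6 libraries, 3 labelled R153A and 3 labelled WT. Both groups grew without any added treatment on gelatin in serum medium with the cytokine LIF, which sustains self-renewal. NANOG is a homeobox protein that helps to keep cells pluripotent, and R153A names an exchange of 1 of its amino acids, alanine in place of arginine. The sources used here do not give how the exchange was made, whether R153A is 1 clone, or whether replicate libraries were separate cultures, so the spread between libraries may be technical. The 10 stem cell markers, Pou5f1, Sox2 and Nanog among them, summed to 2377 to 2481 FPKM in R153A libraries and 4290 to 5045 FPKM in WT libraries, most of it Dppa5a, Pou5f1 and Tdgf1. Pou5f1 was at 510 to 527 FPKM in R153A and 668 to 698 FPKM in WT, while Esrrb was at 1.59 to 2.91 FPKM in R153A and 10.1 to 16.5 FPKM in WT. Dppa5a was at 919 to 959 FPKM in R153A and 2355 to 2996 FPKM in WT. The markers did not all fall. Lin28a was higher in R153A, at 98.1 to 100.5 FPKM, against 41.4 to 46.7 FPKM in WT. Sall4 and Tdgf1 overlapped between the groups, and the other markers were lower in every R153A library than in any WT library. FPKM sums were 360152 to 382086 per library, and the depth behind the values is unknown because the table holds no counts.

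Pluripotent cells hold most genes of later tissues at low level, many under Polycomb repression at CpG-rich promoters. Interferon-inducible genes form another class: their promoters carry an element, with the core GAAANNGAA, that is bound by the STAT and IRF factors of the interferon pathway. The 63 genes include genes of later tissues and interferon-inducible genes, and Polycomb repression was not measured here. By known function they fell into 7 genes of transcription and chromatin, 7 of secreted ligands, enzymes and matrix, 7 of receptors and other surface proteins, 5 interferon-inducible genes, 8 neuronal, ion channel and myelin genes, 5 of muscle and cytoskeleton, 12 of intracellular signalling, 3 enzymes of lipids and glycolipids, and 9 uncharacterised or predicted genes.

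The promoter sequences that bear on this grouping come from RefSeq (build GRCm38.p6) and are 100 bases upstream of a start site, 5′ to 3′ on the gene's strand. The 5 promoters below are shown because each holds the core GAAANNGAA, in capitals, on either strand and within 78 bases of the start. The Isg15 window holds 3 overlapping copies and the Gbp3 window 2.
Isg15 (chr4:156200819-156200918, - strand): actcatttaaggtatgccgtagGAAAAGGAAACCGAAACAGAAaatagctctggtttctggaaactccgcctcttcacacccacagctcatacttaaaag
Gbp3 (chr3:142559944-142560043, + strand): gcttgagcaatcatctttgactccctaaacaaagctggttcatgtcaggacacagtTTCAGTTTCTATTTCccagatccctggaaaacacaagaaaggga
Gbp7 (chr3:142530236-142530335, + strand): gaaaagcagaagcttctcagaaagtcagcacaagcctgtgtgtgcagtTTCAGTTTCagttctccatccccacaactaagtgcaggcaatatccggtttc
Irgm2 (chr11:58214877-58214976, + strand): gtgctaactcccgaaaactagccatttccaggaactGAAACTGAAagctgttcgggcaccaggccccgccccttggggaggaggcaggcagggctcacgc
Cd274 (chr19:29367338-29367437, + strand): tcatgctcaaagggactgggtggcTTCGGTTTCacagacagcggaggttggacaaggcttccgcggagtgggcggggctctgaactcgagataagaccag

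Promoters of a developmental gene, a vascular receptor and a predicted gene follow as single examples, picked with their matches known. In Cdx4 the capitals mark the octamer ATGCAAAT, the motif of POU factors such as OCT4, and in Flt1 the TATA box TATAAA. The Flt1 window also holds a GC box, GGGCGG on the other strand, which is not marked. The Gm21293 window holds no match to any motif searched.
Cdx4 (chrX:103321298-103321397, + strand): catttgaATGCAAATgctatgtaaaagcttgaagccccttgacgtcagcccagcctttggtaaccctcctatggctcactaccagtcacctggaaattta
Flt1 (chr5:147726012-147726111, - strand): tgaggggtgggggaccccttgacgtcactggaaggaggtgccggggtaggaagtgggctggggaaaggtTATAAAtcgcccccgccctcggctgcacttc
Gm21293 (chr10:104142887-104142986, + strand): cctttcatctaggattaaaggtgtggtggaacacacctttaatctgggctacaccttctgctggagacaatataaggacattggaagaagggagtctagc

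As a group the 63 genes were low in R153A cells. Their mean FPKM over the 3 R153A libraries ran between 1.58 and 5.72, with a median of 2.32, against a median of 0.301 in WT libraries. Of the members, 20 had an R153A mean under 2 FPKM, 22 lay between 2 and 3, 12 between 3 and 4, and 9 at 4 or more. Genes with at least 1 FPKM in every R153A library numbered 11420 and had a median of 9.37 FPKM. Only 12.2% of those lay below the median of the 63, and 34.7% below the highest of the 63, Cachd1.

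Replicates were close at these levels. The coefficient of variation over the 3 R153A libraries had a median of 8.19% in the 63 genes, and 7.89% in the 3656 genes with an R153A mean of 1.5 to 6 FPKM. Summed over the 63 genes, the libraries held 181, 168 and 173 FPKM in R153A and 17.4, 18.7 and 18.2 FPKM in WT. No member was listed at 0 in a WT library, while 12 fell under 0.1 FPKM in at least 1 of them. A ratio of means is given for the other 51, with a range of 4.03 to 22.5 and a median of 7.52.

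**Figure D1:**
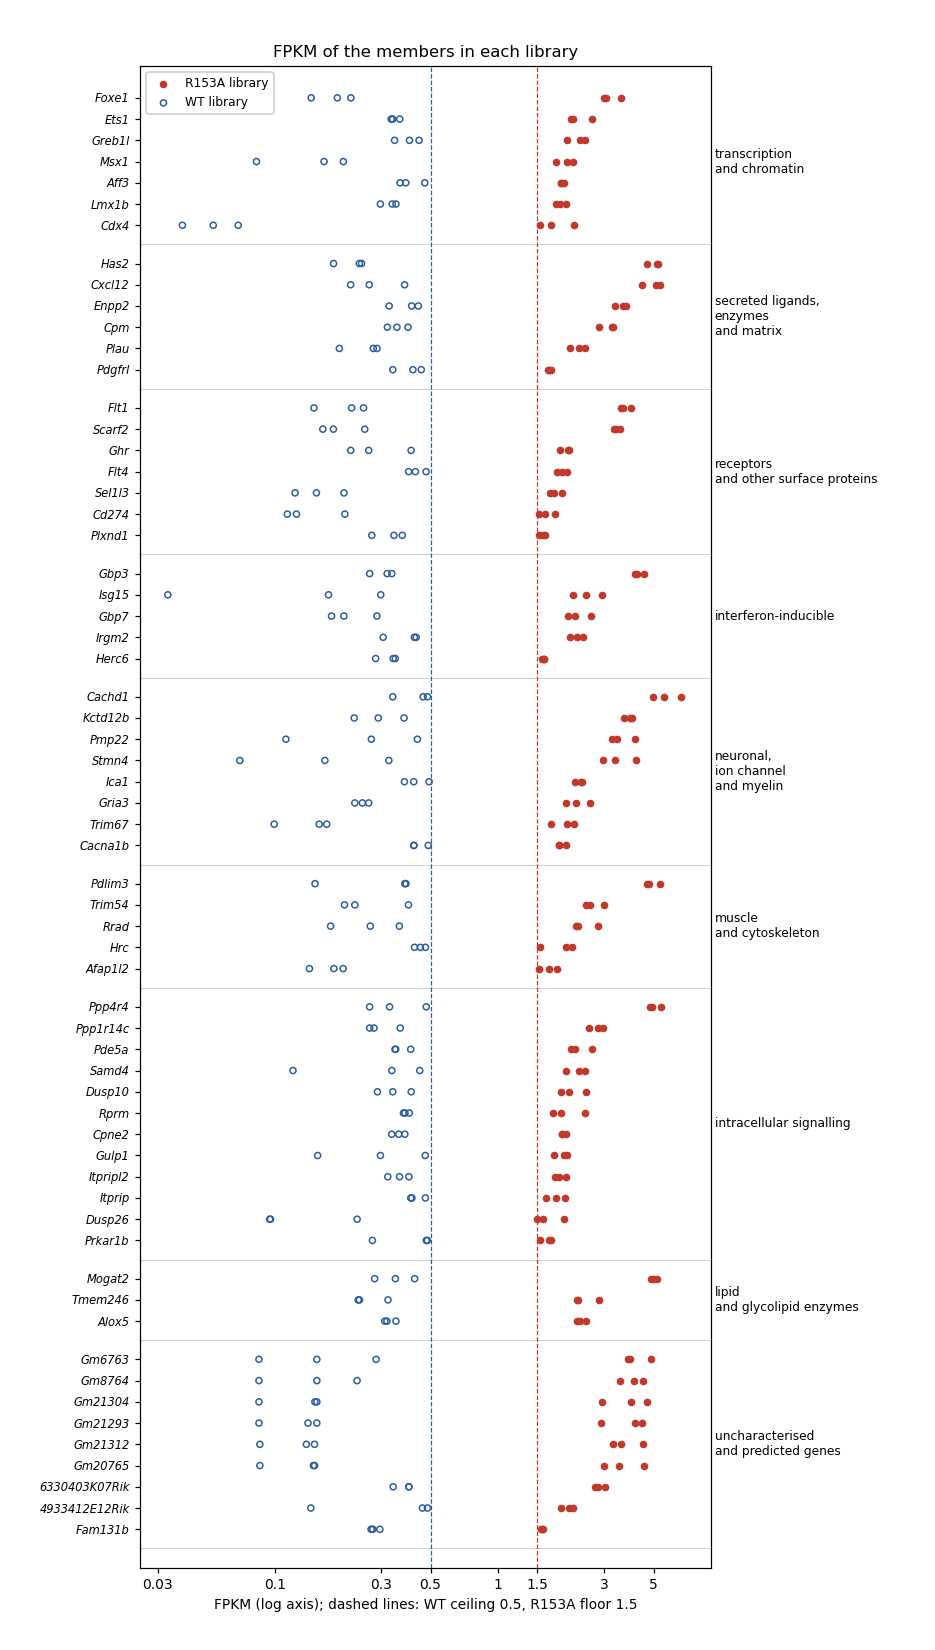
FPKM (log axis) of the members reported here in 3 R153A libraries (filled red) and 3 WT libraries (open blue), grouped by function and ordered within a group by the R153A mean, with dashed lines at the WT ceiling of 0.5 and the R153A floor of 1.5. The gap between the lines is set by the choice of genes, and most R153A values lie close to the floor, with the highest mean, 5.72 FPKM, in Cachd1.

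The thresholds cut through a continuum. Just under the WT ceiling were Ica1, Cacna1b and Cachd1, whose highest WT values were 0.493, 0.488 and 0.485 FPKM. Ica1 had 2.21, 2.36 and 2.39 FPKM in R153A, against 0.421, 0.382 and 0.493 FPKM in WT. Cacna1b had 2.03, 1.88 and 1.88 FPKM in R153A, against 0.420, 0.421 and 0.488 FPKM in WT. Just over the ceiling came Mfap4, a protein of elastic fibres, the ubiquitin ligase gene Rnf217, and Nt5e, which encodes the ectoenzyme CD73. Mfap4 had 2.60, 2.96 and 2.74 FPKM in R153A, against 0.339, 0.5003 and 0.480 FPKM in WT. Rnf217 had 2.85, 2.504 and 3.42 FPKM in R153A, against 0.324, 0.502 and 0.428 FPKM in WT. Nt5e had 9.74, 8.24 and 8.84 FPKM in R153A, against 0.466, 0.506 and 0.433 FPKM in WT, and was higher in R153A than any of the 63.

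At the R153A floor, Dusp26, Afap1l2 and Cd274 were just inside. Dusp26 had 1.99, 1.503 and 1.59 FPKM in R153A, against 0.0959, 0.234 and 0.0952 FPKM in WT. Afap1l2 had 1.70, 1.54 and 1.85 FPKM in R153A, against 0.184, 0.203 and 0.143 FPKM in WT. Nog and Nbl1, which encode secreted BMP antagonists, and Fam102b fell just short in 1 R153A library. Nog had 2.14, 1.76 and 1.48 FPKM in R153A, against 0.177, 0.0467 and 0.171 FPKM in WT. Fam102b had 1.47, 1.58 and 1.52 FPKM in R153A, against 0.481, 0.447 and 0.425 FPKM in WT. Nbl1 had 1.46, 1.67 and 1.51 FPKM in R153A, against 0.411, 0.278 and 0.112 FPKM in WT. The reverse pattern, under 0.5 FPKM in every R153A library and 1.5 or more in every WT library, held for 14 genes, against the 86 that met the thresholds in the R153A direction.

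Members were also read in a fit over the whole table with limma, which tested the 11817 genes that had 1 FPKM or more in at least 3 libraries. Log2 fold changes are R153A minus WT on log2(FPKM + 1), and the pseudocount of 1 makes those of low genes smaller than their ratios. In that fit 37.5% of genes were called higher in R153A and 22.3% lower, at an adjusted p under 0.05. Under quantile normalization 3497 of 7405 called genes were higher, against 4428 of 7062 on the values as deposited. All 63 members were tested and called higher, which the choice of members fixes. Their log2 fold changes ran between 0.92 and 2.30 with a median of 1.39, beside 0.07 over all genes tested. By size of log2 fold change they ranked between 49 and 819, and 12 were among the 100 largest, of which 6 are the near-identical chromosome 10 copies described below.

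**Figure D2:**
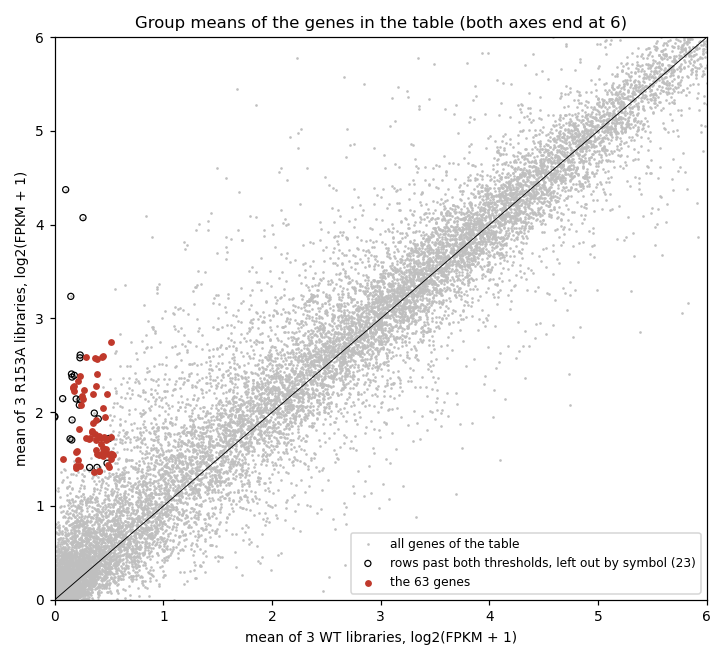
Mean of the 3 R153A libraries (vertical) against the mean of the 3 WT libraries (horizontal), both as log2(FPKM + 1), for genes of the table (grey), the 63 genes (red) and the 23 genes that met both thresholds but were left out by symbol (open). The 63 genes lie at the left edge at low R153A levels, with means of 1.58 to 5.72 FPKM, and the diagonal marks equal means.

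The 7 genes of transcription and chromatin were mostly factors of later embryonic tissues. Foxe1, a forkhead factor of the thyroid and palate, had 3.01, 3.58 and 3.07 FPKM in R153A libraries, against 0.220, 0.146 and 0.191 FPKM in WT libraries. Ets1, an ETS factor of lymphocytes, endothelium and neural crest, had 2.12, 2.65 and 2.17 FPKM in R153A libraries, against 0.339, 0.333 and 0.364 FPKM in WT libraries. Both sat well clear of the thresholds, and Foxe1 had the highest R153A mean of the 7, 3.22 ± 0.315 FPKM (SD, n = 3).

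Greb1l, a relative of the estrogen-responsive Greb1 with a role in kidney development, had 2.34, 2.04 and 2.45 FPKM in R153A, against 0.345, 0.402 and 0.444 FPKM in WT. Msx1, a homeobox factor of the face and limb and a BMP target, had 2.17, 2.04 and 1.83 FPKM in R153A, against 0.203, 0.0829 and 0.167 FPKM in WT. The lowest WT mean of the 63, 0.0535 FPKM, belonged to Cdx4, a caudal-type homeobox factor of the posterior embryo, with 1.73, 1.54 and 2.20 FPKM in R153A and 0.0386, 0.0687 and 0.0531 FPKM in WT. Lmx1b, a LIM-homeodomain factor of the dorsal limb, kidney and midbrain, and Aff3, an AF4-family nuclear protein, averaged 1.92 and 1.94 FPKM in R153A, against 0.328 and 0.408 FPKM in WT. Of the 149 homeobox genes under 0.5 FPKM in every WT library, Cdx4, Lmx1b and Msx1 were the 3 members, which is 2.01%. The 63 members were 0.558% of all such genes, and 0.762% met both thresholds before symbols were left out. The homeobox gene Cdx2 was among those left out. The symbol pattern for homeobox genes was set with the members known, so the homeobox share was not tested against the others.

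Secreted and matrix-forming products held several of the highest levels. Has2, the synthase that extrudes hyaluronan into the matrix, had 5.19, 4.66 and 5.21 FPKM in R153A libraries, against 0.245, 0.240 and 0.184 FPKM in WT libraries. Its ratio of means, 22.5, was the highest of the 51 that could be given. Cxcl12, a chemokine that guides migrating cells through CXCR4, had 4.45, 5.35 and 5.15 FPKM in R153A, against 0.219, 0.266 and 0.383 FPKM in WT. Enpp2, which encodes autotaxin, the secreted enzyme that makes lysophosphatidic acid, had 3.36, 3.64 and 3.74 FPKM in R153A, against 0.326, 0.441 and 0.412 FPKM in WT. The coefficient of variation over the R153A libraries was 6.20% for Has2, 9.47% for Cxcl12 and 5.54% for Enpp2. In WT libraries Cxcl12 ran from 0.219 to 0.383 FPKM.

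Cpm, a membrane-anchored carboxypeptidase, had 3.26, 2.85 and 3.29 FPKM in R153A, against 0.396, 0.320 and 0.354 FPKM in WT. Its right-hand neighbour on chromosome 10 is Mdm2, a p53 target. Plau, the plasminogen activator urokinase, and Pdgfrl, a PDGF-receptor-like protein, had R153A means of 2.30 and 1.71 FPKM, against 0.253 and 0.403 FPKM in WT.

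Receptors were led by a receptor of vascular endothelial growth factor. Flt1, which encodes VEGF receptor 1 and in endothelium acts largely as a trap for its ligands, had 3.94, 3.66 and 3.59 FPKM in R153A libraries, against 0.2504, 0.150 and 0.221 FPKM in WT libraries. Scarf2, a scavenger receptor of class F, had 3.52, 3.33 and 3.40 FPKM in R153A, against 0.184, 0.254 and 0.164 FPKM in WT. These 2 genes stood apart from the other 5 receptors, whose R153A means were 2.02 FPKM or less.

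Ghr, the growth hormone receptor, had 1.91, 2.07 and 2.10 FPKM in R153A, against 0.219, 0.264 and 0.409 FPKM in WT. Flt4, the VEGF receptor of lymphatic endothelium, had 2.04, 1.95 and 1.85 FPKM in R153A, against 0.428, 0.399 and 0.478 FPKM in WT. Cd274, the programmed death ligand that restrains T cells, had 1.80, 1.62 and 1.54 FPKM in R153A, against 0.125, 0.114 and 0.207 FPKM in WT. Flt4 was near the ceiling in WT and Cd274 near the floor in R153A. Plxnd1, a semaphorin receptor of vessels, and Sel1l3 averaged 1.59 and 1.81 FPKM in R153A, against 0.330 and 0.161 FPKM in WT.

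The interferon-inducible genes were 2 guanylate-binding proteins, an immunity-related GTPase and 2 parts of the ISG15 system. Gbp3 had 4.13, 4.53 and 4.23 FPKM in R153A libraries, against 0.335, 0.320 and 0.267 FPKM in WT libraries. Gbp7, its neighbour on chromosome 3, had 2.23, 2.08 and 2.63 FPKM in R153A, against 0.205, 0.180 and 0.287 FPKM in WT. Irgm2, a GTPase of vacuole defence, had 2.10, 2.40 and 2.28 FPKM in R153A, against 0.423, 0.307 and 0.431 FPKM in WT. Gbp3 stood at the highest level of the 5, with a ratio of means of 13.98.

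Isg15, a ubiquitin-like modifier, had 2.48, 2.17 and 2.92 FPKM in R153A, against 0.175, 0.299 and 0.0332 FPKM in WT. One WT library was far below the other 2 for this short gene. Herc6, the ligase that attaches ISG15 in the mouse, had the lowest R153A mean of the group, 1.60 ± 0.0213 FPKM, against 0.324 ± 0.0348 FPKM in WT (SD, n = 3 each). The core GAAANNGAA was found in the promoters of Isg15, Gbp3, Gbp7 and Irgm2, shown above, and not in that of Herc6. It was also in the promoters of Cd274, Plxnd1 and Prkar1b.

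Genes of neurons, ion channels and myelin made up 8 members. Cachd1, a protein related to the auxiliary subunits of voltage-gated calcium channels, had 6.63, 5.54 and 4.98 FPKM in R153A libraries, against 0.339, 0.485 and 0.463 FPKM in WT libraries. Kctd12b, related to an auxiliary subunit of GABA-B receptors, had 4.01, 3.68 and 3.91 FPKM in R153A, against 0.228, 0.380 and 0.292 FPKM in WT. Pmp22, a protein of peripheral myelin that epithelia also use, had 4.10, 3.24 and 3.43 FPKM in R153A, against 0.271, 0.437 and 0.112 FPKM in WT. Cachd1 was the highest of all 63 genes, and its R153A libraries had the largest SD of its group, 0.842 FPKM. Relative to the mean, Stmn4 spread more, with a coefficient of variation of 17.6% in R153A, against 14.7% for Cachd1.

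Stmn4, a neuronal stathmin that binds tubulin, had 2.97, 4.18 and 3.34 FPKM in R153A, against 0.325, 0.168 and 0.0698 FPKM in WT. The remaining 4 were Ica1, a protein of dense-core vesicles, Gria3, a subunit of AMPA-type glutamate receptors, Trim67, a ubiquitin ligase of the nervous system, and Cacna1b, the pore of N-type calcium channels. Their R153A means were 2.32, 2.28, 1.99 and 1.93 FPKM, against 0.432, 0.247, 0.143 and 0.443 FPKM in WT. The sum of 5 neuronal markers was 21.9 to 22.6 FPKM in R153A libraries and 50.9 to 59.6 FPKM in WT libraries, most of it Tubb3, which averaged 15.3 FPKM in R153A and 48.3 FPKM in WT. Map2 was also lower in R153A (adjusted p = 1.6e-04 in limma) and Syn1 higher (adjusted p = 0.0129), and Rbfox3 and Snap25 were too low to be tested. The part of such cells in these levels was not tested.

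Among muscle and cytoskeletal genes, Pdlim3, a Z-disc protein that binds alpha-actinin, had 5.31, 4.79 and 4.67 FPKM in R153A libraries, against 0.388, 0.152 and 0.384 FPKM in WT libraries. Trim54, a ubiquitin ligase of striated muscle, had 3.00, 2.48 and 2.59 FPKM in R153A, against 0.398, 0.229 and 0.206 FPKM in WT. Rrad, a small GTPase that inhibits L-type calcium channels, had 2.83, 2.25 and 2.29 FPKM in R153A, against 0.178, 0.268 and 0.362 FPKM in WT. R153A library 1 was the highest for all 3 genes.

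Hrc, a calcium-binding protein of the sarcoplasmic reticulum, had 2.02, 2.15 and 1.55 FPKM in R153A, against 0.424, 0.475 and 0.450 FPKM in WT. Afap1l2, an actin-associated adaptor, averaged 1.70 FPKM in R153A and 0.177 FPKM in WT. The 6 muscle markers summed to 3.31 to 4.19 FPKM in R153A libraries and 0.776 to 1.11 FPKM in WT libraries, most of it Des, and 5 of the 6 were under 0.5 FPKM in all libraries. Their part in these levels was not tested. In bulk RNA, a few cells at a high level and many cells at a low level cannot be told apart, here or in any other group of these genes.

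The largest group, 12 genes, acts inside the cell in signalling. Ppp4r4, a regulatory subunit of protein phosphatase 4, had 4.82, 4.92 and 5.39 FPKM in R153A libraries, against 0.267, 0.328 and 0.478 FPKM in WT libraries. Ppp1r14c, an inhibitor of protein phosphatase 1, had 2.81, 2.56 and 2.95 FPKM in R153A, against 0.366, 0.267 and 0.279 FPKM in WT. Pde5a, the phosphodiesterase that breaks down cyclic GMP, had 2.21, 2.13 and 2.64 FPKM in R153A, against 0.349, 0.407 and 0.346 FPKM in WT. Ppp4r4 was more than 2 FPKM above the next gene of its group in R153A.

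Samd4, which encodes Smaug, an RNA-binding repressor of translation, had 2.45, 2.33 and 2.02 FPKM in R153A, against 0.121, 0.335 and 0.447 FPKM in WT. The other 8 lay lower, with R153A means of 1.66 to 2.16 FPKM. They were Dusp10 and Dusp26, phosphatases of MAP kinases, Rprm, which encodes the p53-induced cell cycle inhibitor Reprimo, Cpne2, a copine that binds membranes with calcium, Gulp1, an adaptor of engulfment, Itprip and Itpripl2, related to a partner of the inositol trisphosphate receptor, and Prkar1b, a regulatory subunit of protein kinase A. Prkar1b had the smallest ratio of the 51, 4.03.

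Lipid and glycolipid enzymes were 3. Mogat2, the acyltransferase of intestinal fat absorption, had 5.20, 4.87 and 4.99 FPKM in R153A libraries, against 0.424, 0.348 and 0.281 FPKM in WT libraries. Tmem246, which adds a sugar to GPI anchors, had 2.85, 2.30 and 2.27 FPKM in R153A, against 0.237, 0.322 and 0.240 FPKM in WT. Alox5, the lipoxygenase that starts leukotriene synthesis, had 2.48, 2.35 and 2.27 FPKM in R153A, against 0.350, 0.319 and 0.312 FPKM in WT. Mogat2 had the highest level of the group, and Dgat2, the enzyme that acts on its product and its neighbour on chromosome 7, was not called (4.71 ± 0.667 FPKM in R153A and 4.21 ± 0.538 FPKM in WT; SD, n = 3 each).

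Of the 9 uncharacterised or predicted genes, 6 are copies of 1 unit. Gm20765, Gm21293, Gm21304, Gm21312, Gm6763 and Gm8764 stand side by side on chromosome 10, next to Gm4340, and every stretch of 31 bases in the longest transcript of each also occurs in another gene. The 300-base promoters of the 5 that had one were identical in 299 or 300 positions. Their separate values cannot be trusted as separate genes and count as 1 source.

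Gm6763 had 4.88, 3.92 and 3.85 FPKM in R153A libraries, against 0.0851, 0.285 and 0.155 FPKM in WT libraries. Gm8764 had 4.49, 4.07 and 3.52 FPKM in R153A, against 0.0851, 0.234 and 0.155 FPKM in WT. Gm21304 had 4.65, 2.92 and 3.96 FPKM in R153A, against 0.0851, 0.152 and 0.155 FPKM in WT. R153A library 1 was the highest for these copies, and WT library 1 the lowest. Gm21293 had 4.44, 2.91 and 4.11 FPKM in R153A, against 0.0851, 0.141 and 0.155 FPKM in WT. Gm21312 had 4.50, 3.29 and 3.56 FPKM in R153A, against 0.0859, 0.139 and 0.151 FPKM in WT. Gm20765 had 4.52, 3.00 and 3.51 FPKM in R153A, against 0.0859, 0.149 and 0.151 FPKM in WT. The other 3 of the group, 6330403K07Rik, 4933412E12Rik and Fam131b, averaged 2.86, 2.06 and 1.58 FPKM in R153A, against 0.380, 0.363 and 0.281 FPKM in WT.

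Sequence shared with other genes limits a few further members. In 39 members under 1% of the 31-base stretches occurred elsewhere, and in 15 over 10% did. Outside the chromosome 10 copies, the shares were 30.04% in Ppp1r14c, 24.95% in Herc6, 21.51% in Trim54, 14.77% in Gbp7, 14.56% in Cd274, 13.09% in Isg15, 11.88% in Samd4, 10.23% in Irgm2 and 10.19% in Fam131b. For Irgm2 the most similar gene was Igtp. Further, 25 members overlap another RefSeq gene, and 9 overlap one in the table, among them Has2 with Has2os, Msx1 with Msx1os, and Cd274 with Plgrkt. The sources used here do not say whether counting used strand, so reads of such pairs may be mixed.

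Position was mostly scattered. RefSeq placed 62 members on chromosomes, with 9 on chromosome 10, 6 of them the copies, and none on chromosomes 13 and 17. The only members next to another member were the 6 copies and the pair Gbp3 and Gbp7. Of 111 adjacent genes that did not meet the thresholds, 52 were tested, of which 26 were called higher and 7 lower in R153A. Their median log2 fold change was 0.17. Over all genes tested 37.5% were higher and 22.3% lower, with a median of 0.07.

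CpG-rich promoters were more frequent among the 63 genes than among other low genes. A RefSeq promoter, 250 bases before to 50 after the start, was matched for 46 members, and 26 of these (56.5%) were CpG-rich in at least 1 promoter, with an observed over expected CpG of at least 0.6 and at least 50% GC. The share was 16.9% (1267 of 7488) among other genes under 0.5 FPKM in every WT library and 48.9% (8276 of 16917) over all genes of the table. These are shares of genes with no test, and 5 of the 46 are the near-identical copies on chromosome 10, which are CpG-poor. CpG-rich members included Msx1, Lmx1b, Flt1, Flt4, Cxcl12, Cachd1, Ppp4r4, Cacna1b and Cd274, while Gbp3, Gbp7, Isg15, Irgm2, Herc6, Trim54, Hrc and Cdx4 were CpG-poor. The interferon-inducible group, as drawn here, was thus CpG-poor in all 5 members. Cd274, Plxnd1 and Prkar1b, which also hold the core GAAANNGAA but were placed in other groups, were CpG-rich.

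**Figure D3:**
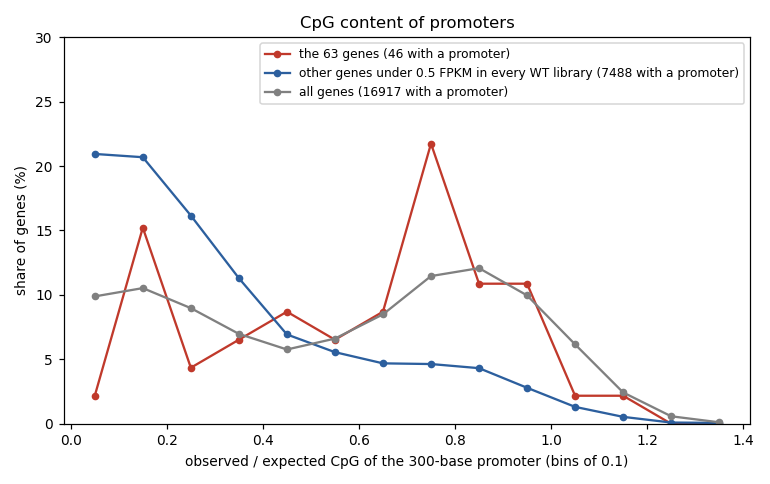
Share of genes with a matched promoter (vertical, %) in bins of observed over expected CpG of the promoter (horizontal). Red marks the 46 of the 63 genes that had one, blue other genes under 0.5 FPKM in every WT library, and grey all genes. The red curve follows the grey one more than the blue one. Medians were 0.671 for red, 0.246 for blue and 0.616 for grey.

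Short motifs were counted in the same promoters. The GC box GGGCGG, searched on both strands like all motifs here, was in 71.7% of the members' promoters, 24.1% of those of other low genes and 49.9% of all. TATAAA was in 8.7% of the members' promoters, against 21.6% and 14.2%. The core GAAANNGAA was in 7 (15.2%), against 10.8% and 9.22%, which gives the background for the 5 windows printed above. The octamer ATGCAAAT, printed for Cdx4, was in 1 member's promoter (2.17%), against 2.08% of those of other low genes and 1.82% of all. The TCF and LEF motif CTTTGAT was also in 1 (2.17%), against 4.93% and 3.77%. The other motifs were in 2 promoters each (4.35%), against 11.8% and 8.39% for the AP-1 motif TGANTCA, 749 of 7488 promoters and 7.6% for the homeodomain motif TAATGG, and 4.89% and 4.45% for the T-box motif TCACACC.

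Genes known to work with the members, listed by textbook relation after the members were known, were read from the same fit. Of 64 in the table, 17 were called higher, 8 lower and 10 were not called, and 29 were too low to be tested. The shares over all genes tested were 37.5% higher and 22.3% lower. Among those called higher, Gbp4, Pgf, Lpar4, Greb1 and Msx2 had under 1 FPKM in every WT library. They could be tested only if higher in R153A, so their direction was fixed by the filter. Relatives of the interferon-inducible members spread from well above them to near silent. Gbp2 had 40.7, 43.9 and 43.8 FPKM in R153A, against 2.09, 2.48 and 2.03 FPKM in WT, and its log2 fold change was 3.78 ± 0.0698 (SE; adjusted p = 4.6e-11 in limma). Irgm1, another GTPase of the family, had 11.6, 11.8 and 13.7 FPKM in R153A, against 1.32, 1.23 and 1.35 FPKM in WT (log2 fold change 2.54, SE 0.0788, limma adjusted p = 1.0e-09). Igtp and Gbp4 rose as well, with log2 fold changes of 1.60 and 0.83, Gbp4 to a mean of 1.14 FPKM in R153A, against 0.207 FPKM in WT. Gbp5, Gbp6, Iigp1, Uba7 and Usp18 were too low to be tested, with means of 0.253 FPKM or less in R153A. In the ISG15 system, Ube2l6, the conjugating enzyme that works with the ligase, fell to 6.46, 6.23 and 6.85 FPKM in R153A, against 25.7, 27.1 and 29.8 FPKM in WT (log2 fold change -1.93, SE 0.067, limma adjusted p = 2.3e-09).

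Ligands and receptors of the signalling members moved in both directions. Vegfa, the main ligand of Flt1, fell to 19.2, 18.9 and 20.98 FPKM in R153A, against 48.6, 49.8 and 53.6 FPKM in WT (log2 fold change -1.32, SE 0.0582, limma adjusted p = 1.1e-08). Pgf, another ligand of Flt1, rose to 1.57 ± 0.309 FPKM in R153A, against 0.599 ± 0.207 FPKM in WT (SD, n = 3 each). Kdr, the signalling VEGF receptor of endothelium, stayed under 0.05 FPKM in all libraries. The receptors of the lysophosphatidic acid that Enpp2 makes differed from each other. Lpar6 and Lpar4 rose to 13.2 and 5.76 FPKM on average in R153A, against 2.29 and 0.749 FPKM in WT, while Lpar1 fell to 1.96 FPKM in R153A, against 3.33 FPKM in WT. The limma adjusted p was 7.0e-09 for Lpar6, 1.3e-08 for Lpar4, whose direction was fixed by the filter, and 0.00186 for Lpar1.

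For Plau, both the receptor Plaur and the inhibitor Serpine2 rose. Plaur averaged 20.5 ± 0.895 FPKM in R153A and 4.76 ± 0.382 FPKM in WT, and Serpine2 averaged 14.0 ± 0.842 FPKM in R153A and 3.01 ± 0.380 FPKM in WT (SD, n = 3 each). Both log2 fold changes were 1.90 (limma adjusted p = 2.7e-09 for Plaur and 9.0e-09 for Serpine2). Its substrate Plg was at or near 0. Low partners of other members included Gh and Pdcd1. Gh, the ligand of Ghr, was listed at 0 in all libraries, and Pdcd1, the receptor of Cd274, reached 0.174 FPKM at most. Cxcr4, the receptor of Cxcl12, was low but measurable, with 0.647, 0.484 and 0.637 FPKM in R153A and 0.849, 0.636 and 0.712 FPKM in WT.

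Relatives of other members went both ways. Greb1 rose to 1.57 ± 0.196 FPKM in R153A, against 0.159 ± 0.0159 FPKM in WT, and Trim63 and Msx2 rose with log2 fold changes of 0.73 and 0.61. Stmn2, a neuronal stathmin like Stmn4, fell to 40.7 ± 1.63 FPKM in R153A, against 71.8 ± 2.15 FPKM in WT, a log2 fold change of -0.80 (limma adjusted p = 1.4e-07). Ets2, Cacna1a and Aff1, relatives of Ets1, Cacna1b and Aff3, also fell, with log2 fold changes of -0.59, -0.41 and -0.42. Smaller calls, on Dgat1, Alox5ap and Vegfb, were lost under at least 1 alternative setting.

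**Figure D4:**
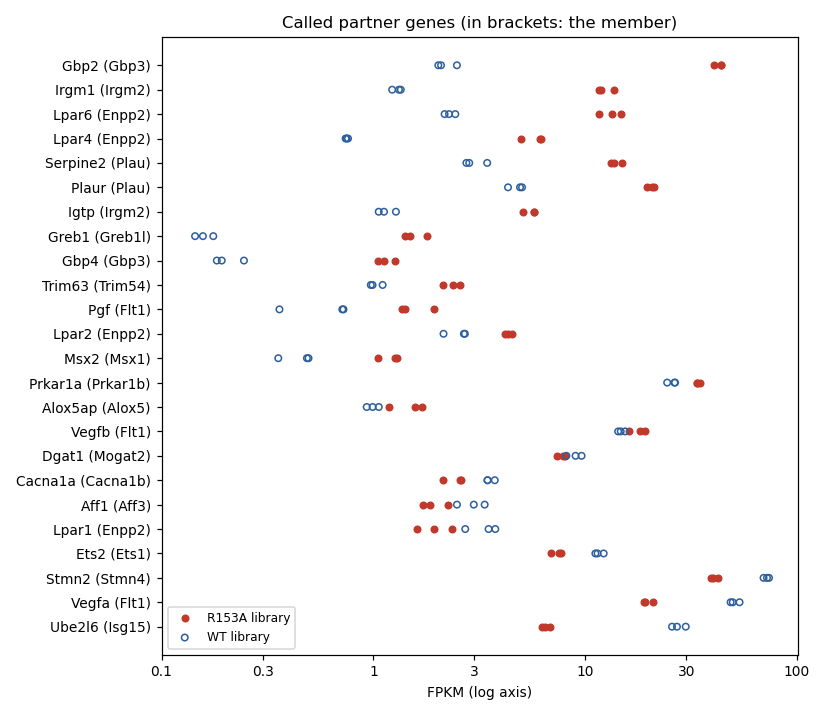
FPKM (log axis) of the partner genes reported here that were called higher or lower, in 3 R153A libraries (filled red) and 3 WT libraries (open blue), with the member each belongs to in brackets, sorted by log2 fold change. Gbp2, Irgm1 and the lysophosphatidic acid receptors Lpar6 and Lpar4 lie at the top, and Stmn2, Vegfa and Ube2l6 at the bottom, with no overlap between the groups in these genes.

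Lists of 18 lineages and pathways, drawn up with earlier results of these data known, place the members among other genes of their kind. Of the 63, Gbp3 and Isg15 were in the interferon list, Flt1 and Flt4 in the endothelial list, Ets1 and Msx1 in the neural crest list, Msx1 also in the BMP and TGF-beta list, Cdx4 in the WNT list and Gm6763 in the 2-cell-like list. No member was in the mesoderm, endoderm, trophoblast, neural, surface ectoderm, blood, heart and skeletal muscle, germline, TNF, retinoic acid, YAP and SRF or p53 lists. The lists do not hold every gene of their kind. Rprm, Trim54, Hrc, Stmn4 and Herc6, described above with p53, muscle, neuronal or interferon roles, are in none of them.

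The counts and medians below leave the members out, since the rule had chosen them as higher. The lists also hold none of the 23 genes left out by symbol, T, Sp5 and Cdx2 among them. Those genes met both thresholds as well, so the counts of lineage, WNT and 2-cell-like lists miss genes that were higher in R153A. Over all 11817 genes tested, 37.5% were called higher and 22.3% lower, with a median log2 fold change of 0.07. A gene with under 1 FPKM in every WT library could be tested only if it was higher in R153A, so its direction was fixed; this held for 517 of all genes tested, and the number is given for each list that has any. The reverse held for 144 genes, among them 2 of the endoderm list and 1 each of the neural and germline lists. The interferon list had 17 tested genes, of which 11 were called higher and 4 lower (median 0.83), and 2 were of the fixed kind. Psmb8, an immunoproteasome subunit, rose to 14.4 ± 0.625 FPKM in R153A, against 1.46 ± 0.380 FPKM in WT (SD, n = 3 each). The endothelial list had 3 of 4 tested genes higher and 1 lower (median 0.33). Sox18, a factor of vessels, rose to 4.10 ± 0.812 FPKM in R153A, against 1.01 ± 0.122 FPKM in WT. Among the endothelial markers, Cdh5 and Kdr were under 0.1 FPKM in every library, and the sum, nearly all Pecam1, was 10.2 to 10.5 FPKM in R153A and 19.9 to 20.4 FPKM in WT.

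BMP and TGF-beta targets were higher in 10 of 16 tested and lower in 2 (median 0.92), with 2 of the fixed kind. Id3, an inhibitor of bHLH factors, rose to 66.7 ± 8.62 FPKM in R153A, against 8.61 ± 0.836 FPKM in WT. WNT targets were higher in 5 of 11 and lower in 3 (median 0.10), with 2 fixed. Axin2, the feedback inhibitor of the pathway and 1 of these 2 fixed genes, stood at 4.37 ± 0.284 FPKM in R153A and 0.804 ± 0.0128 FPKM in WT. In heart and skeletal muscle 6 of 9 were higher and 1 lower (median 0.81), with 3 fixed. Myl3, a ventricular myosin light chain, was at 15.1 ± 1.02 FPKM in R153A and 1.51 ± 0.349 FPKM in WT. YAP and SRF targets had 17 of 18 higher and none lower (median 0.96), with 3 fixed, and p53 targets 16 of 18 higher and none lower (median 0.83), with none fixed. Amotl2, a YAP target, stood at 43.2 ± 0.508 FPKM in R153A and 7.91 ± 0.594 FPKM in WT.

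Mesoderm and primitive streak genes had 3 of 10 tested higher and 4 lower (median -0.01), neural genes 5 of 11 and 4 (median -0.14) and trophoblast genes 8 of 16 and 6 (median 0.14). Endoderm genes were higher in 4 of 11 and lower in 4 (median -0.02), with 2 fixed as higher. Germline genes were higher in 3 of 16 and lower in 8 (median -0.17), and blood genes higher in 1 of 7 and lower in 4 (median -0.45). Surface ectoderm genes were higher in 13 of 18 and lower in 4 (median 0.35), with 2 fixed, and TNF and NF-kB genes higher in 6 of 12 and lower in 3 (median 0.15), with 1 fixed. Retinoic acid genes were higher in 1 of 8 and lower in 4 (median -0.31), and neural crest genes higher in 2 of 4 and lower in 2 (median 0.10), with 1 fixed. Of the 2-cell-like list only Eif1a was left, and it was called lower.

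**Figure D5:**
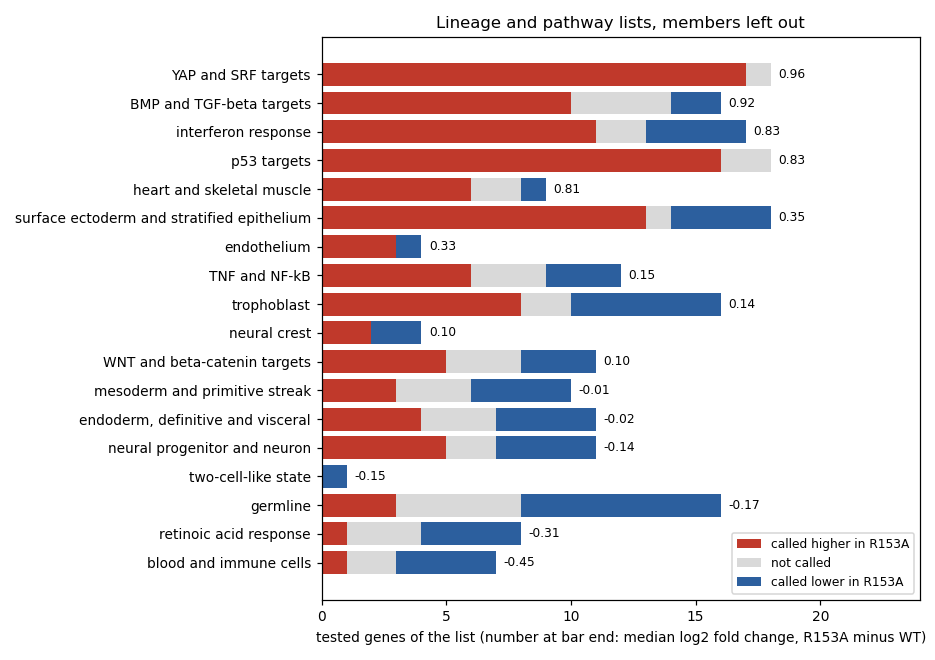
Number of tested genes per list (horizontal), members left out, called higher (red), not called (grey) and called lower (blue) in R153A against WT, with the list's median log2 fold change at the end of each bar. YAP and SRF targets have the highest median, 0.96, and the blood and immune list the lowest, -0.45, beside 0.07 over all genes tested. The 23 genes left out by symbol are in none of the lists.

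Families defined by symbol pattern differed in how many of their low genes were members. Of all 11290 genes under 0.5 FPKM in every WT library, the 63 members are 0.558%. The base of 11290 includes genes that the symbols bar from being members, and 86 (0.762%) met both thresholds before that step. None was a member among 1652 such genes of G-protein-coupled receptors, a pattern that takes in the olfactory and vomeronasal receptors, or among 96 keratin genes. Ion channels had 2 members of 195 (1.03%), Cacna1b and Gria3, and cytokines, chemokines and their receptors 1 of 147 (0.68%), Cxcl12. Kinases and phosphatases had 3 of 55 (5.45%), Dusp10, Dusp26 and Prkar1b. These are counts of 3 or fewer members per family, with no test, and the patterns were set with the members known.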

How the data were processed

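RNA-seq of polyadenylated RNA gave 6 libraries, 3 R153A and 3 WT, grouped by the labels' titles. The authors deposited a table of FPKM values, 1 per gene symbol and library. The submitters' processing notes name HTSeq 0.11.2 and edgeR 3.26.8, then Bowtie2 2.3.4.3 with SAMtools 1.9, and the build mm9, giving no roles. The sources used here do not give the tool behind the FPKM, the annotation or the strand setting. Without counts, no counting interval can be given.

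The fit was limma 3.58.1 in R 4.3.3 on log2(FPKM + 1), 2-sided, with a mean-variance trend, over genes with 1 FPKM or more in at least 3 libraries and Benjamini-Hochberg adjustment over all of them. It was tested on simulated data. A ratio of means was taken only for genes at 0.1 FPKM or more throughout. Plots used Python 3.11.15 and matplotlib 3.10.9. Promoters, names and gene order came from RefSeq (GRCm38.p6) and shared 31-base stretches from GENCODE transcripts, matched by symbol. That is another build than mm9, so gene coordinates are given only for the printed windows.

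The members and lists were chosen with earlier results of these data known. Lists are counted without the members, a choice made after seeing the data. Values in every library are given for the 20 members with the highest R153A mean, up to 4 members of each function group and the genes nearest to each threshold. Of each list, members and some of the 3 called genes with the largest changes are named. Function groups, partner genes, symbol patterns of families and the promoters printed were set after the members' values or matches were seen; Cdx4 was named for its promoter and its WT values. Some items are not reported here.

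Alternatives were other thresholds, group means, pseudocounts of 0.1 and 0.5, no filter, a filter of 5 FPKM, median-ratio scaling, TPM, quantile normalization, no trend, robust moderation, the replicate block, leaving out each library, and another definition and background for CpG-rich promoters.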

Additional observations from a re-analysis of the deposited data

How the results depend on the processing

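The number of genes that meet the rule depends on its thresholds. With a WT ceiling of 0.25 FPKM it was 14, with a ceiling of 1 FPKM 241, with an R153A floor of 1 FPKM 145, with a floor of 3 FPKM 16, and with both thresholds on group means 114, in place of 63. Median-ratio scaling and rescaling to TPM gave 61 genes each, of which 59 and 61 were among the 63. Quantile normalization gave 36, all among the 63, and 54 genes met both thresholds before symbols were left out, against 26 in the reverse direction. Leaving out each library in turn gave 68 to 76.

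Without a filter on low values 181 list genes, members included, were called higher, in place of 115. With a filter of 5 FPKM, 2901 genes were called higher in place of 4428 and 34 list genes lower in place of 53. No member passed that filter, so 0 were called. In the fits that leave out a library the filter asked for 1 FPKM in 2 libraries, set after a run with 3 had left out every member by construction. No named gene changed direction. The calls on Dgat1, Eif1a, Alox5ap and Vegfb were lost under at least 1 setting, and the cause was not tested.

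Of the 46 members with a matched promoter, 37.0% were CpG-rich under the stricter definition, in place of 56.5%. That definition asked for an observed over expected CpG of at least 0.75 and 55% GC. The share among other low genes was then 751 of 7488, in place of 1267 of 7488 (16.9%), and that over all genes 33.3%, in place of 48.9%.

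The replicate numbers of the labels are shared between the groups. Same-numbered libraries deviated from their group means with correlations of -0.0487, -0.00946 and 0.0600, so no strong shared deviation was seen. These values cannot show whether same-numbered libraries were prepared together. With the replicate block 6876 genes were called, against 7062 without it. Depth is unknown, so no limit of detection can be given for the WT values.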
